A study of Homo sapiens with 20 samples.

Results

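The regions described here are the widest peaks of the cohesin subunit RAD21 in CHM13 cells. They were chosen by their width, at least 1500 bp on chromosomes 1 to 22 and X of hg38, and 5239 of the 73739 RAD21 peaks of CHM13 cells (7.10%) met this rule. They were set against the 46627 RAD21 peaks of 500 to 1000 bp from the same list, and the remaining peaks were 9764 of intermediate width and 12109 under 500 bp. The study mapped RAD21, SA1 and SA2 by ChIP-seq in hTERT CHM13 cells, an immortalized line from a complete hydatidiform mole, and in hTERT RPE-1 cells, an immortalized line of retinal pigmented epithelium, both untreated and carrying the same telomerase gene. There were 3 libraries per subunit and 3 of total chromatin in CHM13, and 2 of each in RPE-1, 20 in all. RAD21 was precipitated with antibody ab992 in CHM13 and with ab154769 in RPE-1, while SA1 (A302-579A) and SA2 (A302-580A) antibodies were the same in both lines. CHM13 chromatin also carried Drosophila chromatin as an internal control and was sheared on another instrument, so cell line, RAD21 antibody, shearing and number of replicates cannot be told apart in a comparison of the lines.

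Cohesin is a ring-shaped protein complex that holds sister chromatids together and extrudes loops of chromatin in interphase. RAD21 closes the ring, and each ring carries either SA1 (STAG1) or SA2 (STAG2), the paralogous subunits that bind DNA and the insulator protein CTCF. Cohesin accumulates where CTCF stops loop extrusion, usually as a narrow peak over the CTCF motif, and is also found at active promoters and enhancers, where its loading factor NIPBL binds. A peak list records where signal passed a threshold, so a wide peak can hold several summits joined in calling or merging, and the lists analysed here carry no height, summit or p-value that would separate them.

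The promoters inside the widest peaks show the sequence context of many members. KLF6 (a zinc-finger transcription factor), FLRT2 (a cell-surface adhesion and guidance protein) and CITED2 (a transcriptional coregulator that binds CBP/p300) are 3 of the widest cases of a RefSeq promoter lying wholly inside a member. Each sequence runs 5′ to 3′ on the gene's strand from 250 bp before to 50 bp after the RefSeq start (GRCh38.p14, the assembly of hg38), with the GC-box letters GGGCGG, or their reverse complement, in capitals. The KLF6 promoter (chr10:3785160-3785459, minus strand) held 2 such matches, the FLRT2 promoter (chr14:85529894-85530193, plus strand) held 0 and the CITED2 promoter (chr6:139374599-139374898, minus strand) held 5.
KLF6: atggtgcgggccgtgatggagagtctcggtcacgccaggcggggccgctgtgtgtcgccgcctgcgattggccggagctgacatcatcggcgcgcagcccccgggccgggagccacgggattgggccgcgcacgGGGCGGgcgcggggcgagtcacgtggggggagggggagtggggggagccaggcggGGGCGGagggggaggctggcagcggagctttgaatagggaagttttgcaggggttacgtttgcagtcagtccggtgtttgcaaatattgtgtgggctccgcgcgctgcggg
FLRT2: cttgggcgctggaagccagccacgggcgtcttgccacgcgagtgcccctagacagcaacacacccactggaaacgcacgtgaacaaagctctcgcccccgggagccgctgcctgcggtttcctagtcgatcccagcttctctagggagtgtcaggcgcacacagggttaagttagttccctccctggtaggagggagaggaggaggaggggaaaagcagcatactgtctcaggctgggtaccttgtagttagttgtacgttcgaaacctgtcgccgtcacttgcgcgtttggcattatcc
CITED2: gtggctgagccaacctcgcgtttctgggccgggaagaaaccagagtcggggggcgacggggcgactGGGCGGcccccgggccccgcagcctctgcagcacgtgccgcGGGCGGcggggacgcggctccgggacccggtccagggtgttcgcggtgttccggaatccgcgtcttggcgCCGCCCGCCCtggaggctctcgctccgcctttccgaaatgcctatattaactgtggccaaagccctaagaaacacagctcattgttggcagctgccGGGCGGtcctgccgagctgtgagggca

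A second set of sequences shows the CTCF core motif, which few members held. These are 4 of the widest members with a core match lying inside an SA1 and an SA2 peak of CHM13 and a RAD21 peak of RPE-1 at once. The windows are from hg38, with the core in capitals. The first lies in the 5978-bp peak at the start of SAMD4A, an RNA-binding translational repressor (chr14:54564160-54564219, plus strand). The next lies in a 5644-bp peak in an intron of the noncoding gene ENSG00000250402 (chr5:125412893-125412952, plus strand). The third lies in the 4781-bp peak over SPRY2, an inhibitor of receptor tyrosine kinase signalling (chr13:80343001-80343060, plus strand). The last lies in a 4528-bp peak in an intron whose nearest gene start, 15233 bp away, is that of ENSG00000269256 (chr10:76547527-76547586, minus strand).
SAMD4A: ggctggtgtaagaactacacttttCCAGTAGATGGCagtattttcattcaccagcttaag
ENSG00000250402: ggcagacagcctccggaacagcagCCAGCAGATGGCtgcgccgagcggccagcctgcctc
SPRY2: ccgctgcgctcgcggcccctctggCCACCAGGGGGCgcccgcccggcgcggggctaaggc
ENSG00000269256: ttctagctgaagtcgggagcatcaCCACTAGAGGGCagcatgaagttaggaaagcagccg

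Because width chose the members, their widths are a description. The median width was 1910 bp, the middle 50% lay between 1660 and 2409.5 bp, and the widest peak measured 14014 bp, against a median of 711 bp in the comparison class. Of the members, 2294 reached 2000 bp, 655 reached 3000 bp and 86 reached 5000 bp. They covered 11.5 Mb, or 18.7% of the 61.7 Mb covered by RAD21 peaks of CHM13 cells. The rule cut a continuous distribution. Just inside it, 3 peaks of exactly 1500 bp lay near GLIS3-AS2, HTR1D and ENSG00000278477, and just outside it 3 peaks of 1499 bp lay nearest to a U6 gene, RNA5SP170 and TNFSF4. The share of RAD21 peaks that were wide ran from 3.43% on chromosome 19 (55 of 1604 peaks) to 8.69% on chromosome 3 (461 of 5306).

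Peaks of this width were rarer in the other lists. Among peaks of SA1 in CHM13, 783 of 38153 reached 1500 bp (2.05%), and 745 of these overlapped a wide RAD21 peak. For SA2 in CHM13 the numbers were 969 of 44374 (2.18%) and 934. In RPE-1 cells, 9 of 14939 RAD21 peaks, 3 of 10707 SA1 peaks and 2 of 6389 SA2 peaks were this wide, and 8, 2 and 1 of them overlapped a wide CHM13 RAD21 peak. The RPE-1 RAD21 share depended on the build, at 0.0602% on hg38 and 0.410% (66 of 16078 peaks) on CHM13 v1.0, whereas the CHM13 RAD21 share was 7.10% and 7.15%. The lists give neither signal nor depth, and the part that depth and the number of merged replicates have in these shares was not tested.

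The widest members included peaks at genes for transcription factors, growth factors and cell-surface receptors. KLF6 had the widest, at chr10:3773445-3787458, with its gene start inside the peak, 4829 bp from the peak's centre. It held the centres of 2 SA1 and 4 SA2 peaks, which covered 63.1% and 24.7% of its length, and of 1 RAD21 peak of RPE-1. The FLRT2 peak measured 10399 bp (chr14:85526809-85537207) and held 3 SA1, 3 SA2 and 2 RPE-1 RAD21 centres. SA1 peaks covered 85.5% of it and SA2 peaks 30.9%. The third widest, 9580 bp at chr17:59837343-59846922, held the gene of the microRNA miR-21 and the centres of 4 SA1 and 3 SA2 peaks, but none of any RPE-1 list.

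Next in order came an intronic peak of 8595 bp (chr5:143397367-143405961) near NR3C1, the glucocorticoid receptor gene. Its centre lay 33848 bp from the 5′ end of the NR3C1 gene record. Starts of other NR3C1 transcripts were not examined, so the distance does not place the peak away from every promoter of the gene. The peak held 3 SA1 centres, 1 SA2 centre and 2 RPE-1 RAD21 centres, one of them the widest RPE-1 RAD21 peak seen in any member, at 2176 bp. EXT1, a heparan sulfate polymerase, had a peak of 7959 bp and CITED2 one of 7885 bp. The CITED2 peak held 2 SA1 and 4 SA2 centres, and RPE-1 RAD21 and SA1 peaks marked parts of it too. In each of these 6 peaks the SA1 peaks covered more of the length than the SA2 peaks did, with 50.9% against 27.7% at MIR21, 69.8% against 37.5% near NR3C1, 63.1% against 19.2% at EXT1 and 83.9% against 56.6% at CITED2. Over all members the order was the reverse, with 39.5% of base pairs under SA1 peaks and 47.8% under SA2 peaks.

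**Figure D1:**
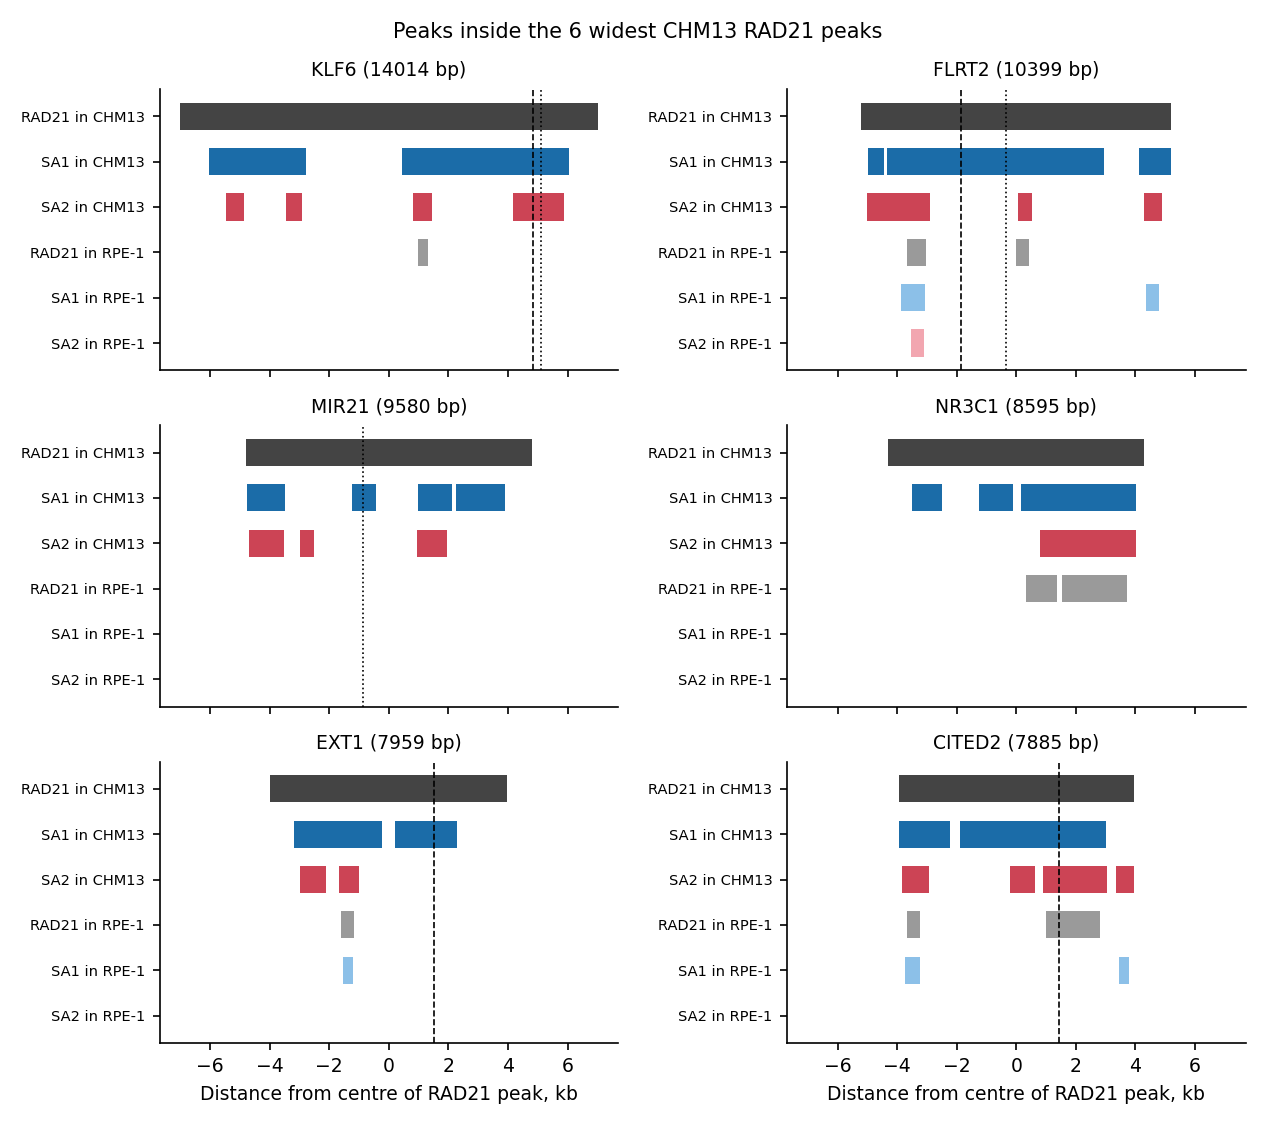
Maps of the 6 widest RAD21 peaks of CHM13 cells, with distance from the centre of the RAD21 peak in kb on the horizontal axis and 1 row for each of the 6 peak lists. Bars are peaks, dashed lines are starts of protein-coding genes and dotted lines are starts of other genes. The KLF6 peak holds 2 SA1 and 4 SA2 peaks, and the miR-21 gene (MIR21) lies between peaks of SA2 with no RPE-1 peak.

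Among the other members of the widest 20, GADD45A (growth arrest and DNA damage response, 7776 bp), NRP1 (a coreceptor of semaphorins and VEGF, 7758 bp), VEGFC (a lymphangiogenic growth factor, 7538 bp), MARCKS (an actin-binding kinase substrate, 7033 bp), SNAI2 (a repressor of epithelial genes, 6999 bp), IRS1 (an insulin receptor substrate, 6731 bp), IRF2BPL (6699 bp) and ZEB2 (another repressor of epithelial genes, 6678 bp) each had their gene start inside. INHBA, which encodes the activin A subunit, had a pair of such peaks, of 7823 and 6723 bp, with centres 21100 and 9455 bp from its start. A peak of 7210 bp had its centre 9023 bp from the 5′ end of the KLF7 gene record, and one of 6777 bp held MIR199A2. Other transcript starts of KLF7 were not examined. In all, 12 of the 20 held a protein-coding gene start, 19 overlapped SA1, 19 overlapped SA2 and 12 overlapped RAD21 of RPE-1, while 0 held a CTCF core match. The exception for both SA1 and SA2 was the peak of 7309 bp at MIR222HG, the host transcript of miR-221 and miR-222 (chrX:45764811-45772119).

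Members more often contained SA1 and SA2 than peaks of ordinary width did. Overlap by at least 1 bp with an SA1 peak was found in 3640 of 5239 members (69.5%) and in 52.9% of the 500 to 1000 bp peaks, where the share over all RAD21 peaks of CHM13 cells was 48.1%. The difference was 16.6 percentage points (95% interval 15.2 to 17.9) and had the same direction on 23 of 23 chromosomes. For SA2 the shares were 83.4% and 61.9%, with 57.2% over all RAD21 peaks, a difference of 21.5 points (20.4 to 22.6), again on 23 of 23 chromosomes. The gap depended on the widths compared. SA1 overlapped 64.3% of the 2945 members of 1500 to 2000 bp, against 64.8% of peaks of 750 to 1000 bp and 44.8% of those of 500 to 750 bp. For SA2 these shares were 79.0%, 76.0% and 52.3%. Intervals here and below are Newcombe intervals of a difference in shares or Wilson intervals of a share. They cover counting error over peaks only, not the spread between replicates, which the pooled lists do not hold.

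A wide peak has more room for an overlap, so the same was asked of the central 500 bp of each peak. SA1 then overlapped 61.9% of members and 52.9% of the comparison peaks, a difference of 9.01 points (7.61 to 10.4), and SA2 75.01% and 61.9%, a difference of 13.2 points (11.9 to 14.4). This excess held only against the narrower comparison peaks. From 500 to 750 bp the central shares were 44.8% for SA1 and 52.3% for SA2. From 750 to 1000 bp they were 64.8% and 76.0%, not below those of members. Against the full comparison class the gap was thus smaller in the central window than over the whole peak. What part length had in this was not tested. The centre of a wide peak need not be a summit, so the central window also misses signal that lies to the side.

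Both SA paralogs were present in most members. SA1 and SA2 overlapped 66.3% of members together, against 47.8% of comparison peaks. SA2 without SA1 was found in 17.1% against 14.0%, and SA1 without SA2 in 3.23% against 5.06%. Neither was found in 703 members (13.4%) but in 33.1% of comparison peaks, a difference of -19.7 points (-20.7 to -18.6). Of these 703 members without a called SA peak, 284 held a protein-coding gene start, and their median width was 1750 bp. The 10 widest of them lay at MIR222HG, HMGA2, ARID1B, TLE3, UBTF, CPEB2, TM2D2, TGFB2, RN7SKP57 and IGF2BP1, with widths from 3933 to 7309 bp. HMGA2, an architectural chromatin protein, had a RAD21 peak of 4980 bp, and TGFB2, a secreted growth factor, one of 4289 bp.

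Most members held 1 SA1 and 1 SA2 peak rather than many. Counting peaks by their centres, 1600 members held 0 SA1 peaks, 3096 held 1, 502 held 2 and 41 held 3 or more, with a maximum of 4. For SA2, 872 held 0, 3658 held 1, 658 held 2 and 51 held 3 or more, again with a maximum of 4. The commonest arrangement, in 2625 members, was 1 of each. At least 2 SA1 centres were found in 543 members (10.4%) and at least 2 SA2 centres in 709 (13.5%), while 0 of 46627 comparison peaks held 2, which peaks of that width have little room for. Neighbouring SA1 centres inside a member were a median of 1316 bp apart (586 pairs) and neighbouring SA2 centres 1288 bp (765 pairs).

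The members richest in SA peaks were MIR21 (4 SA1 and 3 SA2 centres) and MIR199A2 (3 and 4), with 7 in all, the largest sum found. KLF6, FLRT2, CITED2, the ENSG00000269919 locus beside PRDM1, IRF2BP2, CCN1, ANKUB1 and ARID5B followed, and 15 members held 6 or more. CCN1, a matricellular protein induced by serum and stretch, had 4 SA1 and 2 SA2 centres in a peak of 5687 bp. Per kb of RAD21 peak, SA centres were nevertheless sparser in members, at 0.367 SA1 and 0.446 SA2 centres per kb, than in comparison peaks, at 0.738 and 0.863. The share of base pairs under an SA1 peak was 39.5% in members and 43.1% in comparison peaks, and under an SA2 peak 47.8% and 49.3%.

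The SA peaks inside members were themselves wider. SA1 peaks overlapping members had a median width of 910 bp (95% interval 894 to 927, 4227 peaks) against 593 bp (591 to 595, 24656 peaks) in the comparison class, and SA2 peaks 943 bp (923 to 960) against 576 bp (574 to 578). For RAD21 peaks of RPE-1 cells the medians were 489 bp (480 to 498, 1451 peaks) and 437 bp (434 to 439, 10811 peaks), a difference of 52 bp. Sites that were wide in the RAD21 list of CHM13 thus had wider peaks of SA1 and SA2, and to a lesser degree of RPE-1 RAD21, in lists that the rule did not use.

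Centres of SA1 and SA2 peaks lay mostly towards the middle of members, but over a broader range of distances than in comparison peaks. The middle 50% of the length held 71.0% of the SA1 and 71.1% of the SA2 centres in members. In the 100-bp bin just right of the centre of members there were 7.77 SA1 centres and 10.6 SA2 centres per 100 RAD21 peaks, against 25.2 and 29.1 in the comparison class. Away from that bin the SA curves of members had shoulders to both sides. The RAD21 peaks of RPE-1 behaved differently, with 1.24 centres per 100 members in that bin and 2.20 in the bin 350 bp to the right, so that they lay more often beside the centre than on it. In comparison peaks the RPE-1 value was 11.3 at the centre.

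**Figure D2:**
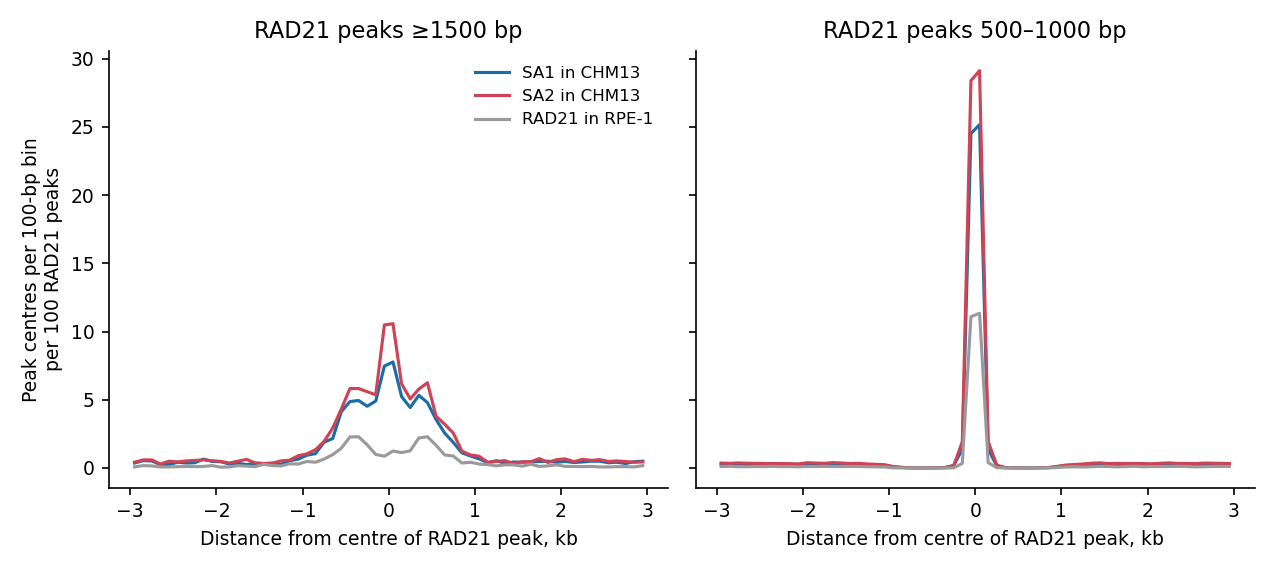
Positions of SA1 and SA2 peak centres of CHM13 and of RAD21 peak centres of RPE-1 around the centres of RAD21 peaks of CHM13, in 100-bp bins, given per 100 RAD21 peaks, for members (left) and for peaks of 500 to 1000 bp (right). The horizontal axis is distance in kb. Members show a low central maximum with shoulders, 10.6 SA2 centres at most, and a dip of RPE-1 RAD21 at the centre, while the comparison class shows a sharp maximum of 29.1.

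Whether members were shared with RPE-1 cells depended on the measure. A RAD21 peak of RPE-1 overlapped 1322 members (25.2%) and 23.2% of comparison peaks, with 19.5% over all RAD21 peaks, a difference of 2.05 points (0.828 to 3.30) that was positive on 17 of 23 chromosomes. In the central 500 bp the shares were 15.3% and 23.2%, and the difference turned to -7.88 points (-8.90 to -6.81), negative on 22 of 23 chromosomes. With SA1 peaks of CHM13 as the units, 31.7% of those in members and 42.3% of those in comparison peaks overlapped a RAD21 peak of RPE-1, a difference of -10.6 points (-12.1 to -9.05). The direction of the comparison with RPE-1 RAD21 therefore depended on the measure. RPE-1 RAD21 centres in members lay more often beside the centre than on it, and SA1 peaks in members were wider than those in comparison peaks, so neither alternative isolates length, and the cause of the change was not tested.

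The SA lists of RPE-1 gave like values. SA1 of RPE-1 overlapped 20.3% of members and 16.0% of comparison peaks (14.1% of all RAD21 peaks), and SA2 of RPE-1 12.6% and 9.59% (8.5% of all). Both differences turned negative in the central 500 bp, to -4.65 points (-5.55 to -3.71) and -3.08 points (-3.77 to -2.33). Members overlapping all 3 RPE-1 lists numbered 551, or 10.5% of members against 7.14% of comparison peaks. Of these 551, 73 held a protein-coding gene start (13.2%, against 24.5% of all members) and 105 a CTCF core anywhere in the peak (19.1%, against 5.71% of all members). The 10 widest of these lay at FLRT2, FAT1, PDGFC, ENSG00000289624, ALCAM, RBPMS, SEMA5A, HAS2, DACT1 and DSEL, from 4907 to 10399 bp. FAT1, a protocadherin, had a peak of 6568 bp, PDGFC, a secreted growth factor, one of 6287 bp, ALCAM, an adhesion molecule, one of 5736 bp and HAS2, a hyaluronan synthase, one of 5251 bp.

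Width and overlap were not related in a simple way. The share of RAD21 peaks overlapping a RAD21 peak of RPE-1 was 2.45% under 500 bp and 33.6% from 750 to 1000 bp, then 22.9% from 1500 to 2000 bp, and it reached 49.3% (42.7 to 55.9) in the 215 members of 4000 bp or more. In the central 500 bp the values for the classes from 1500 to 2000 bp and from 4000 bp were 18.6% and 14.4% (10.3 to 19.7). Overlap with SA2 in the whole peak was 76.0% at 750 to 1000 bp and 93.5% at 4000 bp or more, whereas in the central 500 bp it was 76.0% and 64.7%. In the widest class the central window held SA1 more often than SA2, at 80.0% (74.1 to 84.8) against 64.7% (58.1 to 70.7), the reverse of every narrower class.

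**Figure D3:**
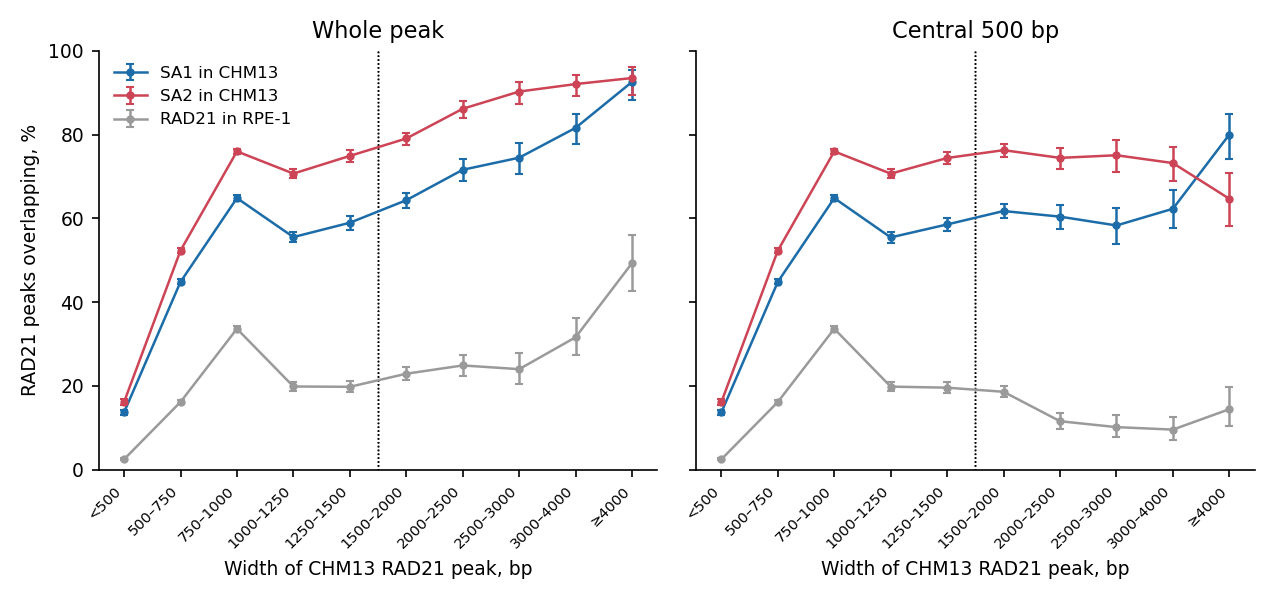
Share of CHM13 RAD21 peaks, in percent, that overlapped a peak of SA1 or SA2 in CHM13 or of RAD21 in RPE-1, by width of the RAD21 peak in bp, for the whole peak (left) and its central 500 bp (right). Points are shares, bars are Wilson 95% intervals and the dotted line marks 1500 bp. RPE-1 RAD21 is highest at 33.6% from 750 to 1000 bp in the central window, and in the whole peak reaches 49.3% at 4000 bp or more.

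Members lay at gene starts far more often than peaks of ordinary width. The centre was within 1 kb of a GENCODE gene start in 1468 members (28.0%) and in 9.40% of comparison peaks, with 11.5% over all RAD21 peaks, a difference of 18.6 points (17.4 to 19.9) on 23 of 23 chromosomes. For protein-coding genes the shares were 21.7% and 5.499%, with 7.32% over all RAD21 peaks, a difference of 16.2 points (15.1 to 17.4). Ends of protein-coding genes showed no such excess, with 1.26% of member centres within 1 kb against 2.26%. Centres of members lay in exons in 19.1%, in introns in 55.7% and between genes in 25.1%, against 10.4%, 56.6% and 32.9% in the comparison class.

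The members fell into a group at gene starts and a group far from them. Their median distance to the nearest gene start was 10367 bp (9402 to 11257) against 16297 bp (16016 to 16555), and the lowest 25% lay within 816.5 bp against 5257 bp. Yet 3085 members were more than 5 kb from every gene start, and these lay farther from protein-coding gene starts than their counterparts, at a median of 117176 bp (111108 to 122862) against 71830.5 bp (70526 to 73152). The share more than 50 kb from every gene start was 18.9% and 19.5%, a difference of -0.57 points whose interval (-1.67 to 0.57) held 0.

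**Figure D4:**
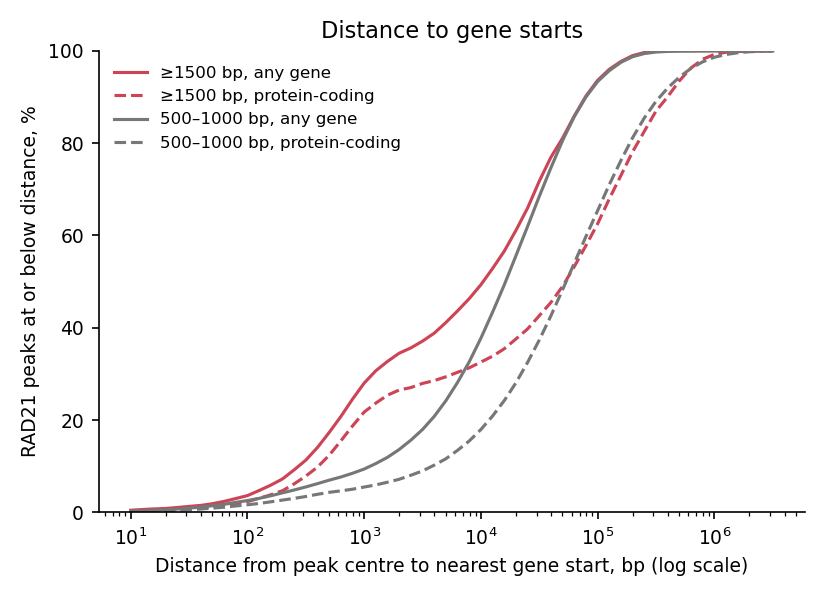
Share of RAD21 peaks, in percent, whose centre lay at or below a given distance from the nearest gene start, in bp on a log scale, for members (red) and peaks of 500 to 1000 bp (grey), with solid lines for any gene and dashed lines for protein-coding genes. At 1 kb the curves for any gene stand at 28.0% and 9.40%, and those for protein-coding genes cross near the median distance of about 53654 bp.

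A protein-coding gene start lay inside 1281 members (24.5%) and 3.76% of comparison peaks, which are shorter, and 108 members held more than 1. Together they took in 1394 of the 19970 protein-coding gene starts (6.98%), beside 714 starts of long noncoding RNA genes and 40 of microRNA genes. In a list of AP-1 and immediate early genes, 18 of 30 starts lay inside a member, beside 6.98% of all protein-coding genes. They included JUN (5456 bp), JUND (3299 bp), FOS (1729 bp), FOSL1 (1614 bp) and FOSL2 (4363 bp), which encode the AP-1 transcription factor. The MAP kinase phosphatases DUSP1 (3727 bp), DUSP5 (5953 bp) and DUSP6 (5156 bp) and the matricellular CCN1 and CCN2 (3157 bp) were in members too. The start of JUNB lay in a narrower peak of 1405 bp, and no RAD21 peak held the start of FOSB, ATF3, EGR1, EGR2 or EGR3.

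Genes of the cytoskeleton and matrix gave 15 of 30 (50.0%), and 21 (70.0%) lay in a RAD21 peak of any width. TPM1 (tropomyosin) had the widest of these, 6153 bp with 3 SA1 centres and 1 SA2 centre, followed by LAMC1 (a laminin chain, 4726 bp) and FN1 (fibronectin, 4710 bp). COL4A1 and COL4A2, the head-to-head collagen IV genes, shared a peak of 4278 bp. Other members held the starts of the integrin genes ITGB1 (1707 bp), ITGA3 (2157 bp) and ITGAV (1999 bp) and of MYH9 (nonmuscle myosin, 3198 bp). The 5′ end of the gene record of ACTB (beta-actin) lay in a peak of 1261 bp, which fell outside the rule. Other transcript starts of ACTB were not examined, so this peak is not shown to lie at its main promoter.

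Other lists, all small, had lower shares of starts in members, yet each was above the 6.98% of all protein-coding genes. Each share rests on only 3 or 4 genes. Protein-coding genes are not a matched base for the noncoding RNA list, and no share over all noncoding genes was taken. The shares were 30.8% for glycolytic and housekeeping genes and 20.0% for nuclear noncoding RNAs. They were 16.7% for cohesin and its regulators and 16.0% for trophoblast regulators. RAD21 peaks of any width held 53.8%, 46.7% and 33.3% of the starts in the glycolytic, noncoding and cohesin lists. Of 13 glycolytic and housekeeping enzymes and transporters, 4 did (PKM, ENO1, HK2 and SLC2A1), while the start of GAPDH lay in a RAD21 peak of 612 bp. Of 25 trophoblast regulators, the lineage that makes up most of a hydatidiform mole, 4 did, namely TP63 (2125 bp), TBX3 (2847 bp), VGLL3 (1906 bp) and ARID3A (2017 bp), and 5 (20.0%) lay in a RAD21 peak of any width, near the 23.7% of all protein-coding genes. GATA2, GATA3, TFAP2A, TFAP2C, CDX2 and ELF5 had none at their start. Cohesin and its regulators gave 3 of 18. These were STAG1, which encodes SA1 itself (2469 bp), and PDS5A and PDS5B (2106 and 2190 bp), which regulate cohesin release. The start of CTCF lay in a peak of 1495 bp, just under the limit. Of 15 abundant nuclear noncoding RNAs, NEAT1 (1636 bp), SNHG5 (4743 bp) and RN7SL2 (1841 bp) had one, and MALAT1 missed the limit with 1473 bp. These counts describe lists of unequal make-up, in which a gene's expression was not measured.

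Some of the widest members held microRNA genes. Besides MIR21 and MIR199A2, members held MIR221 (6168 bp), MIR214 (4743 bp), MIRLET7I (4660 bp), MIR125B1 (3658 bp) and MIR193B (3636 bp). In all, 40 of 1877 microRNA genes (2.13%) started in a member and 41 (2.18%) in the comparison class, or 3.47 and 1.23 per Mb covered. The share in members was below the 6.98% of protein-coding genes. Some members lay near one another. With peaks closer than 25 kb joined, 1557 members (29.7%) were in 669 groups of 2 or more, and 8 groups held 6 or more. The same share was not taken for other RAD21 peaks, so it does not show that members cluster more than they do. The largest, of 7 members over 70630 bp with 8 SA1 and 7 SA2 centres, held starts of noncoding genes only (chr3:55133319-55203948). One of 6 members spanned MIR221, MIR222 and MIR222HG (chrX:45709339-45772119) with 5 SA1 and 5 SA2 centres. Another of 6 held the starts of VIM, which encodes the intermediate filament vimentin, and TRDMT1 (chr10:17199169-17258303), and another that of DAB2, an endocytic adaptor (chr5:39420001-39520881). The 25-kb distance and these groups were chosen after the values were seen.

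The CTCF core motif was scarcer in members than in comparison peaks. It was present in the central 500 bp of 55 members (1.05%, 0.807 to 1.36) and of 10.2% of comparison peaks, with 7.81% over all RAD21 peaks, a difference of -9.15 points (-9.52 to -8.73), negative on 23 of 23 chromosomes. Windows of the same length 10 kb away held it in 0.153% and 0.242%. Over the whole peak, which gives members more sequence, the shares were 5.71% and 10.2%. The centre of a wide peak need not be a summit, so the central window can miss a core to the side. The motif search was strict, so the values compare classes and do not count CTCF sites, and a window without a match can still bind CTCF.

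The direction was the same in the subsets and units tried. Among members more than 5 kb from a gene start the share was 1.26% against 9.93%, and within 1 kb of one it was 0.409% against 7.87%. SA1 peaks inside members had the core in their central 500 bp in 4.80% against 17.3% of those in comparison peaks, and SA2 peaks in 4.17% against 14.5%. Across widths, the share in the central window was highest from 750 to 1000 bp (11.9%) and was 0.465% (0.0822 to 2.59) at 4000 bp or more. The matched sequences printed above, from SAMD4A to ENSG00000269256, are thus exceptions among the widest members.

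**Figure D5:**
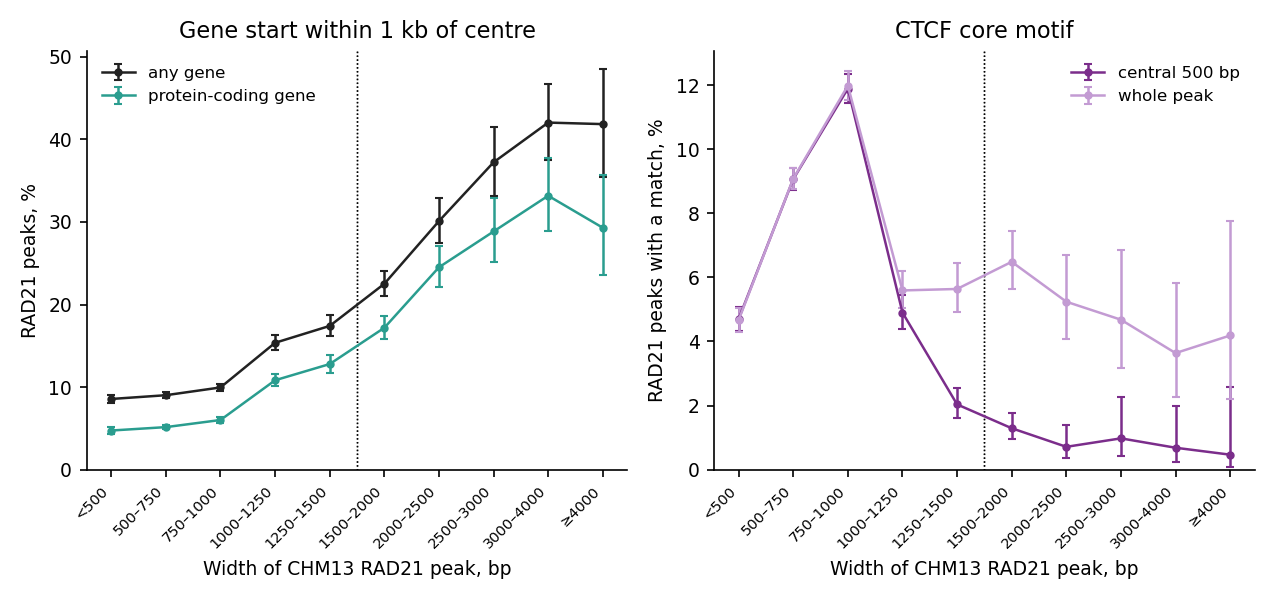
Share of CHM13 RAD21 peaks, in percent, with a centre within 1 kb of a gene start (left) and with a CTCF core match (right), by width of the RAD21 peak in bp. Points are shares, bars are Wilson 95% intervals and the dotted line marks 1500 bp. Gene starts reach 42.0% from 3000 to 4000 bp, and the CTCF core in the central window falls from 11.9% at 750 to 1000 bp to 0.465% at 4000 bp or more. Over the whole peak the CTCF core share at 4000 bp or more was 4.19%.

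Base composition separated members at gene starts from the others. The median G+C content of the central 500 bp was 43.4% in members and 43.0% in comparison peaks, and 25.8% of members against 9.49% had 60% or more. Within 1 kb of a gene start the medians were 67.6% and 59.6%, and more than 5 kb from one they were 40.0% and 42.0%. The ratio of observed to expected CpG in members within 1 kb of a gene start was 0.805 against 0.664. The GC-box letters GGGCGG, searched on both strands, were in the central 500 bp of 29.4% of members and 14.5% of comparison peaks (15.9% of all RAD21 peaks). Near gene starts the shares were 70.6% and 53.4%, while far from them they were 9.37% and 9.31%, a difference of 0.06 points (-0.96 to 1.18). Of the 2355 RefSeq promoters lying wholly inside a member 71.3% held these letters, against 61.3% of the 2031 inside a comparison peak and 45.03% of all 34961.

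The GC box was one of 10 short motifs searched after values had been seen, on both strands and without regard to overlaps between motifs. The AP-1 site TGANTCA was less frequent in the central 500 bp of members, at 21.1% against 32.8%, and more than 5 kb from a gene start at 28.3% against 35.7%, where windows 10 kb away held it in 15.1% and 14.9%. Counted over the whole peak, distal members and comparison peaks had 0.725 and 0.744 matches per kb, so the classes were close in density. The TEAD letters GGAATG (26.3% against 31.8%) and the RUNX letters TGTGGT (25.4% against 32.5%) were also less frequent in members. In distal peaks the gaps were smaller, at 29.9% against 33.3% and 31.2% against 34.1%. Over whole distal peaks GGAATG had 0.772 matches per kb in both classes, and TGTGGT 0.758 and 0.805. Windows 10 kb away held TGTGGT in 30.6% and 31.5%, near the share in comparison peaks. CCAAT (46.0% against 50.0%) and GAANNTTC (13.5% against 15.0%) were less frequent in members by less. In distal peaks their differences were 1.04 points (-0.80 to 2.87) and -0.01 points (-1.32 to 1.37). The GATA letters AGATAA were in 26.9% against 28.1%, but in distal peaks in 35.3% against 30.4%. Over all peaks the remaining motifs differed by under 1 point, with CCGGAAG in 3.84% against 3.32%, TGACGTCA in 0.630% against 0.397% and the serum response element in 2.98% against 3.06%. Within 1 kb of a gene start, however, CCGGAAG was in 8.04% of members against 13.6% of comparison peaks, a difference of -5.61 points (-7.26 to -3.81). Such letters occur by composition alone, and a match is not a bound site.

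The AP-1 site is shown in 2 of the widest members more than 5 kb from a gene start that held it inside an SA1 and an SA2 peak, with the site in capitals, on the plus strand of hg38. The first is in the 7823-bp peak near INHBA (chr7:41685662-41685721) and the other in the 7084-bp peak at ENSG00000269919, whose centre lay 94231 bp from the start of PRDM1, a transcriptional repressor (chr6:106084383-106084442).
INHBA: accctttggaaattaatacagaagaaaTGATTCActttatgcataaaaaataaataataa
ENSG00000269919: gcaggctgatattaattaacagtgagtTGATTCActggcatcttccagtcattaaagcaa

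Members far from gene starts and members at gene starts differed in cohesin content as well. Distal members here are those far from a start, and many can lie inside genes. More than 5 kb from a gene start, SA1 overlapped 75.7% and SA2 88.6% of members, against 52.8% and 63.1% of comparison peaks. Within 1 kb of a gene start the shares were 56.3% and 72.9%, against 45.2% and 46.2%. Neither SA subunit was called in 8.78% of distal members and in 22.5% of those at gene starts. RAD21 of RPE-1 overlapped 23.3% of distal members and 26.4% of those at gene starts, against 21.7% and 22.7% of comparison peaks, and in the central 500 bp 15.4% and 13.5% of members. SA1 of RPE-1 overlapped 24.02% of distal members and 11.5% of those at gene starts, and SA2 of RPE-1 14.4% and 8.11%. The split by distance was chosen after the values were seen.

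Members also had closer neighbours in the RAD21 list. The median gap to the nearest RAD21 peak was 3698 bp for members and 6989 bp for comparison peaks, and the nearest peak was itself wide in 11.4% and 7.02%. These come from the list that the rule used and are given as a description.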

How the data were processed

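The authors' deposited files are 12 lists of peak positions in bp, one per cell line, subunit and genome build, and the 6 lists on hg38 were used, with those on CHM13 v1.0 as an alternative. No coordinates were converted between builds. To make them the authors used bwa mem for alignment, samtools for read filters and macs for peaks of each replicate at a q threshold of 0.01, then merged replicates with GenomicRanges and discarded loci found in fewer than 2 replicates. The methods state this for CHM13 v1.0, and for hg38 the submitters' processing notes name BWA, SAMtools and MACS2 without parameters. Lists give positions with no height, p-value or depth, so no test between replicates was possible, and read depth, which can change which peaks are called and their width, is not in the lists (the study states reads per library, which were not used here).

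Analysis used Python 3.11.15, numpy 2.4.6, scipy 1.17.1 and pandas 2.3.3, with figures from matplotlib 3.10.9. Widths are end minus start. Peaks overlapped when they shared at least 1 bp. Gene distance ran from the peak's centre to the 5′ end of GENCODE 44 gene records, and motifs were read from hg38 sequence. A gene start means this end throughout. Starts of a gene's other transcripts were not used, so a peak counted as away from a start can still lie at a promoter. Functions were tested on simulated data. The named members are the 20 widest, the 10 with most SA1 and SA2 centres, the 10 widest in all 3 RPE-1 lists, the 10 widest without SA1 or SA2, 3 on each side of 1500 bp and genes of the lists with a start in a member. Other names were chosen after their values were seen. Members and lists were chosen with earlier results of these data known. 2 wide peaks on other sequences were left out, and the total chromatin libraries have no peak list.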

Additional observations from a re-analysis of the deposited data

How the results depend on the processing

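The number of wide peaks was 8680 with the lower minimum tried and 2294 with one of 2000 bp, while the CHM13 v1.0 list and the joining of peaks closer than 100 bp left it within 1.5 times. The values below are differences between members and comparison peaks in percentage points, or in bp for widths. With a minimum of 2000 bp they became 23.2 for SA1, 27.03 for SA2, 5.06 for RPE-1 RAD21, 25.7 for gene starts and 2.80 for G+C content, and 62.5 bp for RPE-1 RAD21 width. Against all narrower peaks they were 22.98 for SA1, 28.1 for SA2 and 6.19 for RPE-1 RAD21. In the central 500 bp they were 9.01 for SA1 and 13.2 for SA2, and RPE-1 RAD21 changed sign to -7.88. On CHM13 v1.0 RPE-1 RAD21 gave 3.93 and its width 96 bp. Gene starts gave 16.2 for protein-coding genes and 16.95 within 5 kb, and the CTCF core over the whole peak -4.54.

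Alternatives added after seeing the data were peaks more than 5 kb from a gene start, with 22.9 for SA1, 25.5 for SA2, -8.67 for the CTCF core and a change of sign to -2.00 for G+C content, and SA1 peaks as units, with -12.5 for the CTCF core and a change of sign to -10.6 for RPE-1 RAD21. The cause of these sign changes was not tested. Of 37 alternatives, 12 stayed within the interval or 1.5 times the count, 22 moved with the same direction and 3 changed sign. No paired analysis was possible because the lists pool the replicates, and leaving out a replicate could not be run for the same reason. With no depth in the lists, a peak missing from a list is not shown to be absent.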
